A study of Mus musculus with 4 samples.

Results

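The genes described here are 44 mouse genes whose proteins work in or around the nucleolus to build ribosomes. They were taken from a fixed list of symbols, and all 44 symbols matched 1 row each among the 50600 genes counted. For the description they were placed in 7 groups by role: 4 nucleolar scaffold and chaperone proteins, 7 genes of RNA polymerase I and its factors, 3 box C/D and 4 box H/ACA small nucleolar ribonucleoprotein (snoRNP) core proteins, 10 small subunit processome proteins, 12 large subunit assembly factors and 4 factors of late small subunit maturation.

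RNA-seq was done on 4 libraries of primary regulatory T cells, Foxp3-bearing CD4 cells that hold immune responses in check. The 4 libraries are biological replicates 1 to 4 of a single group of strain C57BL/6NJ, with sex not collected, age unknown and 1 donor identifier shared by all. Names in the file headers carry the word activated and 72 h, the labels link a protocol for differentiating CD4 T cells, and no untreated or other cell group was available for comparison. Whether the replicates were cultured from different animals is not stated, so p-values measure only the spread between these libraries. They differed in Xist, given below, and so are not repeats of 1 RNA sample.

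Ribosome production starts in the nucleolus, where RNA polymerase I transcribes the ribosomal DNA into a long precursor RNA. snoRNPs modify that precursor, the small subunit processome folds and cleaves its 5′ part, and a separate chain of factors assembles the large subunit before both particles leave the nucleus. T cells that leave rest after antigen receptor stimulation enlarge their nucleoli and raise ribosome output before they divide.

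Replicates 1 to 4 held 121477975, 62472060, 73690296 and 51460018 fragment counts on genes. All 6 regulatory T cell markers examined, among them Foxp3 at 448.1 ± 27.8 transcripts per 1000000 (TPM), exceeded 100 TPM. Of 4 B cell, 4 myeloid, 2 CD8 T cell, 2 natural killer, 3 erythroid and 3 stromal or endothelial markers, 0, 1, 1, 0, 0 and 2 reached 1 TPM in every library. The highest of these was Cd8b1, at 11.5 ± 2.16 TPM. The libraries stood apart in Xist, the X inactivation transcript, at 172.5 and 199.4 TPM in replicates 1 and 2 but 0.593 and 0.758 TPM in replicates 3 and 4. Dkc1, the X-linked member, lay at 148.8 and 170.2 TPM in the first pair and at 150.3 and 155.1 TPM in the second, so the pairs overlapped. Unless stated otherwise, levels below are the mean TPM ± SD over n = 4 libraries, where TPM divides counts by the length of all annotated exons of a gene. For the members whose place moved most with that length, the value with the length of 1 coding transcript is given too. On that second scale the 5 members of unchanged length stood at 0.640 of their TPM, since all genes are scaled to the same total again.

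The messages of the ribosome-building genes were detected throughout and mostly abundant. Each of the 44 reached 1 TPM in every library, against 48.9% of 21764 protein-coding genes. On average 28 of 44 (63.6%) reached 100 TPM, against 19.7% of the 10640 protein-coding genes that had 1 TPM in every library. The median member stood at 142.5 TPM, with quartiles of 81.1 and 271.2 TPM, where the median of those 10640 genes was 32.5 TPM. Levels spanned from 9.56 TPM for Wdr74, a value made uncertain by shared exon bases, to 1395 TPM for Npm1, which ranked 60 among protein-coding genes. Together the 44 genes took 1.00%, 0.983%, 0.999% and 0.979% of all counts in replicates 1 to 4, and their summed level was 8843 ± 78.5 TPM. Because the samples are bulk RNA, a larger share of cells with a message and more message per cell cannot be told apart.

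**Figure D1:**
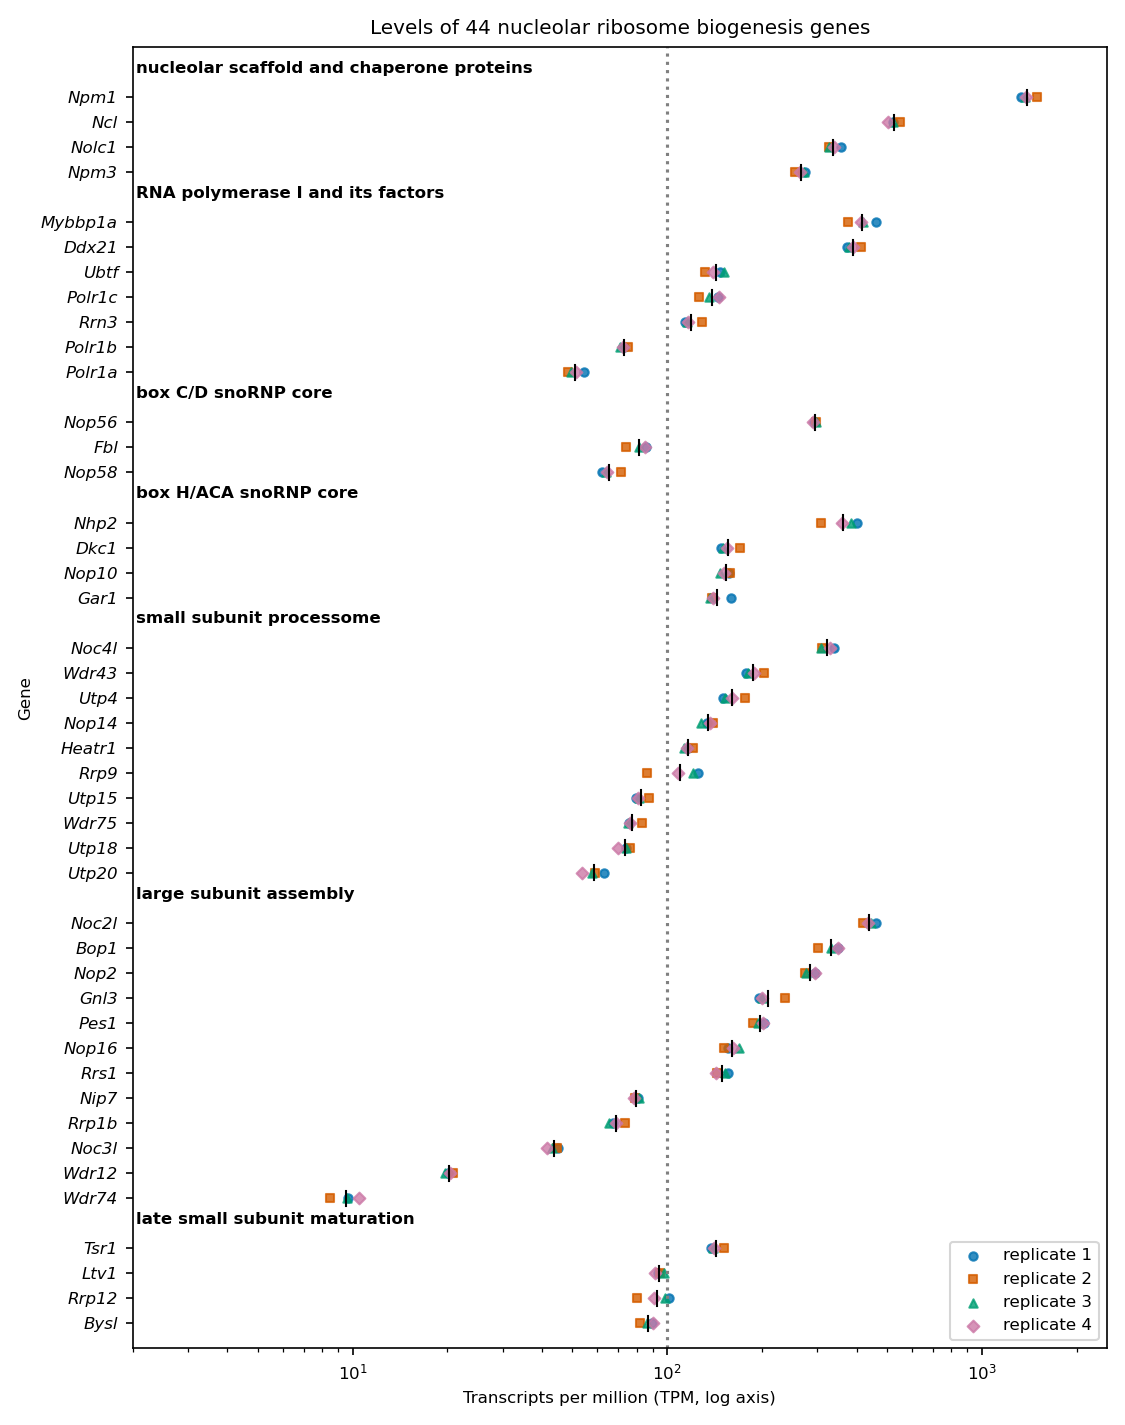
Levels of all 44 ribosome biogenesis genes by role. Each point is 1 library on a log axis of TPM, the black tick is the mean of 4 libraries and the dotted line marks 100 TPM. Npm1 stands alone at the high end, Wdr12 and Wdr74 lie lowest, and the 4 libraries of a gene sit close together beside the distances between genes.

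The order of levels was coarse. Among the 43 neighbours in the order, 15 kept their order in all 4 libraries and 28 did not. The steps at the ends were wide, since Npm1 exceeded Ncl by 1.41 ± 0.05 on the log2 scale, Noc3l exceeded Wdr12 by 1.10 ± 0.06 and Wdr12 exceeded Wdr74 by 1.09 ± 0.15, each in 4 of 4 libraries. The place of Wdr12 rests on its exon length, since with the coding transcript length it stood at 54.5 ± 1.33 TPM, above Noc3l at 27.9 ± 1.13 TPM, while Npm1 and Ncl stayed highest and Wdr74 lowest. The place of Wdr74 is uncertain on either length, because 90.7% of its exon bases are shared with another gene and fragments on both were not counted. In the crowded middle, Utp4 and Nop16, and likewise Tsr1 and Ubtf, differed by 0.00 on average with an SD of 0.16 and 0.14, so their order cannot be read.

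The promoters of these genes were searched for 3 short motifs in RefSeq windows (GRCm38.p6) that run from 250 bases before the start to 50 after it. Of the 44 genes, 39 matched a window, all but Npm1, Fbl, Bop1, Rrs1 and Rrp12. A gene was counted once if any of its windows held the motif. The E-box CACGTG, which reads the same on both strands and is the preferred letter string of Myc with its partner Max, occurred in 10 of 39 genes (25.6%). It occurred in 9.14% of 16430 other coding genes and in 12.1% of the 8504 of them with 1 TPM in every library. Counted per window, it was in 7.15% of all 32851 windows. TATAAA, read on both strands, was in 2 of 39 genes (5.13%), Dkc1 and Pes1, against 14.3% of the other coding genes and 7.84% of the expressed ones among them. GCATGCGC, the core letters of the NRF1 motif on either strand, was in 1 of 39 genes (2.56%), Ubtf, against 4.12% and 6.56%. None of the 3 strings contains another. Such a match describes letters in a window and is not a measured binding site.

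The 11 E-box matches are shown because the E-box was the most frequent of the 3 motifs in the members, and 10 of 11 lie within 100 bases of the start, with a median position of 16. Each is given 5′ to 3′ on the strand of its gene, with CACGTG in capitals, up to 12 bases on either side and position 1 as the first transcribed base. The Utp20 and Mybbp1a sequences stop where the window ends.
Nop2, chr6:125131811-125131840, plus strand, position -60: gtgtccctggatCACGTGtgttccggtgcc
Utp4, chr8:106893643-106893672, plus strand, position 16: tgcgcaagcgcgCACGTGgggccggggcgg
Ltv1, chr10:13193092-13193121, minus strand, position 29: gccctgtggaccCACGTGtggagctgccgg
Utp20, chr10:88826765-88826789, minus strand, position 38: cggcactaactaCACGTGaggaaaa
Pes1, chr11:3963965-3963994, plus strand, position 3: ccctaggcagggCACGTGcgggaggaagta
Mybbp1a, chr11:72441355-72441376, plus strand, position 41: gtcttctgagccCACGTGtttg
Tsr1, chr11:74898092-74898121, plus strand, position 25: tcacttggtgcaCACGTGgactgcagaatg
Utp18, chr11:93885769-93885798, minus strand, position -20: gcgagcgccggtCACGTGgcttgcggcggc
Rrn3, first match, chr16:13780472-13780501, plus strand, position -215: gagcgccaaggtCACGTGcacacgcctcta
Rrn3, nearer match, chr16:13780639-13780668, plus strand, position -48: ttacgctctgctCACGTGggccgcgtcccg
Wdr43, chr17:71616220-71616249, plus strand, position 18: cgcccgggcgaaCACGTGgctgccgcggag
Of these matches, 7 lie after the start and 4 before it. The 10 genes come from 4 of the 7 roles: Rrn3 and Mybbp1a of RNA polymerase I, Utp4, Utp18, Utp20 and Wdr43 of the processome, Nop2 and Pes1 of large subunit assembly, and Ltv1 and Tsr1 of late small subunit maturation. The windows of Ncl, Npm3, Nolc1, Nop56, Nop58 and the 4 box H/ACA genes hold none, while Npm1 and Fbl had no window to search.

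The nucleolar scaffold and chaperone proteins made up the most abundant group, with a summed level of 2523 ± 70.9 TPM over 4 genes. Npm1, nucleophosmin, a chaperone of histones and ribosomal proteins (ENSMUSG00000057113.13, chromosome 11, 33152287 to 33163206, minus strand of mm10), had 1329, 1497, 1372 and 1382 TPM in replicates 1 to 4. Its value was highest in replicate 2 and close in the other libraries. Ncl, nucleolin, which binds nascent ribosomal precursor RNA, followed at 524.9 ± 19.5 TPM. Nolc1, a phosphoprotein that gathers snoRNPs, stood at 337 ± 14.5 TPM. Npm3, a smaller relative of nucleophosmin and the lowest of the group (ENSMUSG00000056209.7, chromosome 19, 45747734 to 45749591, minus strand), had 274.3, 254.5, 272.9 and 264.6 TPM. Npm1 exceeded Npm3 in every library, by 2.39 ± 0.12 on the log2 scale, and exceeded Ncl in every library as well, although Ncl, the longer gene, took more counts than Npm1 (0.53 ± 0.05 on the log2 scale without division by length).

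RNA polymerase I and its factors summed to 1329 ± 28.1 TPM over 7 genes, and the factors around the enzyme were more abundant than its largest subunits. Mybbp1a, a nucleolar protein that acts in ribosomal RNA synthesis and processing (ENSMUSG00000040463.16, chromosome 11, 72441355 to 72451768, plus strand), led with 460, 375.6, 420.1 and 414.1 TPM. It was highest in replicate 1 and lowest in replicate 2. Ddx21, a helicase that couples polymerase I transcription with processing, stood at 388.3 ± 17.4 TPM. Ubtf, which binds and shapes active ribosomal DNA, was measured at 142.5 ± 8.62 TPM. Rrn3, the factor that brings the polymerase to the promoter, reached 119 ± 6.73 TPM and fell short of Ubtf by 0.26 ± 0.16 on the log2 scale, in 4 of 4 libraries. With the coding transcript length (2759 bases for 6552 in Ubtf) that difference was 1.5 ± 0.16, with Ubtf at 216.8 ± 13.2 TPM. Polr1c, a subunit that RNA polymerases I and III share, stood at 138.5 ± 9.34 TPM, and Polr1b, the second-largest subunit, at 72.8 ± 1.83 TPM. Polr1a, the catalytic largest subunit (ENSMUSG00000049553.11, chromosome 6, 71909053 to 71984935, plus strand), was lowest, with 54.3, 48.2, 49.5 and 51.3 TPM. Polr1a was below Polr1b by 0.52 ± 0.09 and below Polr1c by 1.44 ± 0.05 on the log2 scale in every library, an order that turns when counts are not divided by length.

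The box C/D snoRNP core guides 2′-O-methylation of ribosomal RNA, and the 3 of its genes that are among the members were unequal. Their sum was steady, at 441.7 ± 0.759 TPM. Nop56 (ENSMUSG00000027405.16, chromosome 2, 130274430 to 130279313, plus strand), a scaffold protein of the particle, had 293.6, 297.2, 296.5 and 291.4 TPM, the smallest coefficient of variation (CV, the SD over the mean) of all 44 genes at 0.906%. Its relative Nop58 (ENSMUSG00000026020.9, chromosome 1, 59684971 to 59719044, plus strand), with which it forms a heterodimer in the particle, was lowest of the group with 62.0, 71.5, 64.1 and 64.4 TPM. Nop56 exceeded Nop58 by 2.17 ± 0.08 on the log2 scale in every library. With the coding transcript length Nop56 moved in the order from place 10 to place 3, at 412.1 ± 4.97 TPM, and the difference was 3.12 ± 0.08, while without division by length it was 0.78 ± 0.08. Fbl, fibrillarin, the methyltransferase itself, stood at 81.6 ± 5.35 TPM. Fbl depends on the gene model: with the length of the coding transcript in place of all exons (1197 bases for 4209) its level was 183.6 ± 11.7 TPM, and its excess over Nop58 went from 0.32 ± 0.18 to 1.95 ± 0.18. Without division by length Fbl lay below Nop58, at -1.04 ± 0.18.

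The box H/ACA snoRNP core, which converts uridine to pseudouridine in ribosomal RNA and also serves telomerase, summed to 816.3 ± 39.0 TPM. Nhp2, an RNA-binding core protein (ENSMUSG00000001056.3, chromosome 11, 51619735 to 51623714, plus strand), was highest at 402, 307.3, 383.7 and 358.8 TPM, with replicate 2 lowest. The other 3 were almost level with each other. Dkc1, dyskerin, the pseudouridine synthase, had 148.8, 170.2, 150.3 and 155.1 TPM. Nop10, the smallest protein of the core, had 157.1, 158.1, 147.3 and 151.4 TPM. Gar1, which binds the synthase (ENSMUSG00000028010.16, chromosome 3, 129824912 to 129831396, minus strand), was lowest with 159.7, 138.5, 136.9 and 139.6 TPM, of which replicate 1 stood above the rest. The difference of Dkc1 from Nop10 was 0.02 ± 0.08 on the log2 scale (exact sign-flip p = 0.625) and from Gar1 0.12 ± 0.17 (exact p = 0.25), and neither held 1 direction in all libraries. Dkc1 lay below Nhp2 in each library, by 1.21 ± 0.26 on the log2 scale, and above it by 0.63 ± 0.26 when counts are not divided by length. With the coding transcript length, Dkc1 exceeded Nop10 by 0.58 ± 0.08 in 4 of 4 libraries, and Nop10, at 98.3 ± 3.28 TPM, was then the lowest of the core.

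The small subunit processome genes summed to 1322 ± 22.8 TPM, and 6 of the 10 reached 100 TPM. Noc4l (ENSMUSG00000033294.11, chromosome 5, 110648418 to 110653417, minus strand), which partners Nop14, led with 338.8, 309.5, 307.3 and 328.7 TPM. Nop14 stood at 134.6 ± 4.62 TPM, below Noc4l by 1.25 ± 0.08 on the log2 scale in every library. The genes Heatr1, Utp4, Utp15, Wdr43 and Wdr75, encode proteins of the first subcomplex to join the precursor (UtpA). Their levels were 187.7 ± 11.5 TPM for Wdr43, 160.5 ± 12.2 TPM for Utp4 and 116.4 ± 3.07 TPM for Heatr1. The remaining UtpA genes were Utp15 at 82.3 ± 3.53 TPM and Wdr75 at 77.5 ± 3.93 TPM. So the messages for 1 subcomplex covered a range, and Utp15 was below Wdr43 by 1.19 ± 0.04 on the log2 scale in every library. Their order changes with the coding transcript length, where Utp4 at 158.9 TPM lay above Wdr43 at 120.2 TPM and Wdr75 at 82.4 TPM above Heatr1 at 71.9 TPM. Utp18, of the UtpB subcomplex, stood at 73.4 ± 2.59 TPM. Rrp9, which binds the U3 snoRNA, had 125.5, 86.4, 120.4 and 107.9 TPM, the largest CV of the 44 genes at 15.8%. Utp20, a very large scaffold protein (ENSMUSG00000004356.8, chromosome 10, 88746607 to 88826804, minus strand), was lowest with 63.0, 59.1, 57.7 and 53.8 TPM, and was exceeded by Heatr1 by 1.00 ± 0.09 on the log2 scale in 4 of 4 libraries.

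Large subunit assembly genes had a sum of 1994 ± 40.8 TPM, and 7 of 12 reached 100 TPM. Noc2l (ENSMUSG00000095567.7, chromosome 4, 156236010 to 156247616, plus strand), which works in early precursor particles, led with 460.1, 418.7, 444.0 and 435.0 TPM. Noc3l, which binds Noc2l in later particles, had 45.1, 44.6, 43.1 and 41.4 TPM. Noc2l thus exceeded its partner by 3.33 ± 0.07 on the log2 scale, a ratio that hardly differed between libraries and was 3.37 ± 0.07 with the coding transcript length.

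Pes1, Bop1 and Wdr12 form a complex needed to process the large subunit RNA, and their messages were far apart. Bop1 had 349.9, 301.7, 330.5 and 349.7 TPM. Pes1 had 203.8, 187.1, 195.1 and 202.2 TPM. Wdr12 had 20.1, 20.9, 19.7 and 20.4 TPM, the third-smallest CV of the set at 2.41%. Bop1 exceeded Wdr12 by 4.03 ± 0.12, and Pes1 exceeded it by 3.27 ± 0.08, on the log2 scale in 4 of 4 libraries. These sizes rest on an exon length of 11955 bases for Wdr12. With its coding transcript of 2850 bases Wdr12 stood at 54.5 ± 1.33 TPM, and the differences were 1.96 ± 0.12 and 1.26 ± 0.08, in the same direction.

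Among the other large subunit genes, Nop2, a methyltransferase of the large ribosomal RNA, stood at 285.1 ± 10.9 TPM. Nip7, which interacts with Nop2 in large subunit assembly, had 80.6, 79.0, 81.3 and 78.5 TPM, with a CV of 1.66%, and lay 1.83 ± 0.07 below Nop2 on the log2 scale in every library. Gnl3, nucleostemin, a nucleolar GTP-binding protein, was at 208.5 ± 19.0 TPM. Nop16, a component of early precursors of the large subunit, was at 160.2 ± 7.58 TPM, and at 239.5 ± 11.3 TPM with the coding transcript length (place 17 and place 10 in the order). Rrs1, which helps to bring in the 5S particle, was at 148.9 ± 6.56 TPM. Rrp1b, a nucleolar protein of the same precursors, was at 68.8 ± 3.40 TPM. Wdr74, a late nucleolar assembly factor (ENSMUSG00000042729.10, chromosome 19, 8735827 to 8740624, plus strand), was lowest of all 44 genes, with 9.69, 8.51, 9.59 and 10.5 TPM from 421, 187, 257 and 192 counts. That value is uncertain, because 90.7% of the exon bases of Wdr74 also belong to another annotated gene on the same strand, and fragments on both genes were not counted. Shared exon bases made up 8.0% in Nop56, 2.12% in Ncl, 0.781% in Nop58 and none in the other members.

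Late small subunit maturation genes summed to 416.4 ± 7.16 TPM. Tsr1, a GTPase-like factor that sits on the maturing cytoplasmic particle (ENSMUSG00000038335.13, chromosome 11, 74898071 to 74909342, plus strand), led with 138, 151.4, 140.1 and 140.6 TPM. Ltv1, which must leave that particle before it can mature, had 93.5, 94.7, 97.7 and 91.5 TPM. Rrp12, which helps to export the particles, had 101.5, 79.9, 98.2 and 90.6 TPM and the third-largest CV, 10.4%. Bysl, bystin, which acts in the nuclear particle (ENSMUSG00000023988.8, chromosome 17, 47599331 to 47611492, minus strand), was lowest with 89.6, 81.9, 86.1 and 90.2 TPM. Bysl fell below Ltv1 in every library, but by 0.12 ± 0.09 on the log2 scale, a difference little above its spread, and lay above it without division by length. Tsr1 exceeded Ltv1 by 0.59 ± 0.07 in 4 of 4 libraries.

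Across all 23 partner pairs chosen for comparison, 21 held 1 direction in all 4 libraries, and 13 differed by more than 1 on the log2 scale. The SD of a pair's difference between libraries was 0.08 at the median and ranged from 0.03 for Wdr43 against Wdr75 to 0.26 for Dkc1 against Nhp2. The SD exceeded the mean difference for Dkc1 against Gar1 and against Nop10 and was smaller than it in the other 21 pairs. With 4 libraries the smallest exact two-sided sign-flip p is 0.125, so no pair could pass 0.05, and the smallest Benjamini-Hochberg adjusted p over the 23 pairs was 0.137. Without division by length, the mean direction turned in 6 pairs, where the longer gene of the pair gains. With the coding transcript length, an alternative chosen after seeing the data, 23 of 23 pairs had the same mean direction as with the merged exon length.

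**Figure D2:**
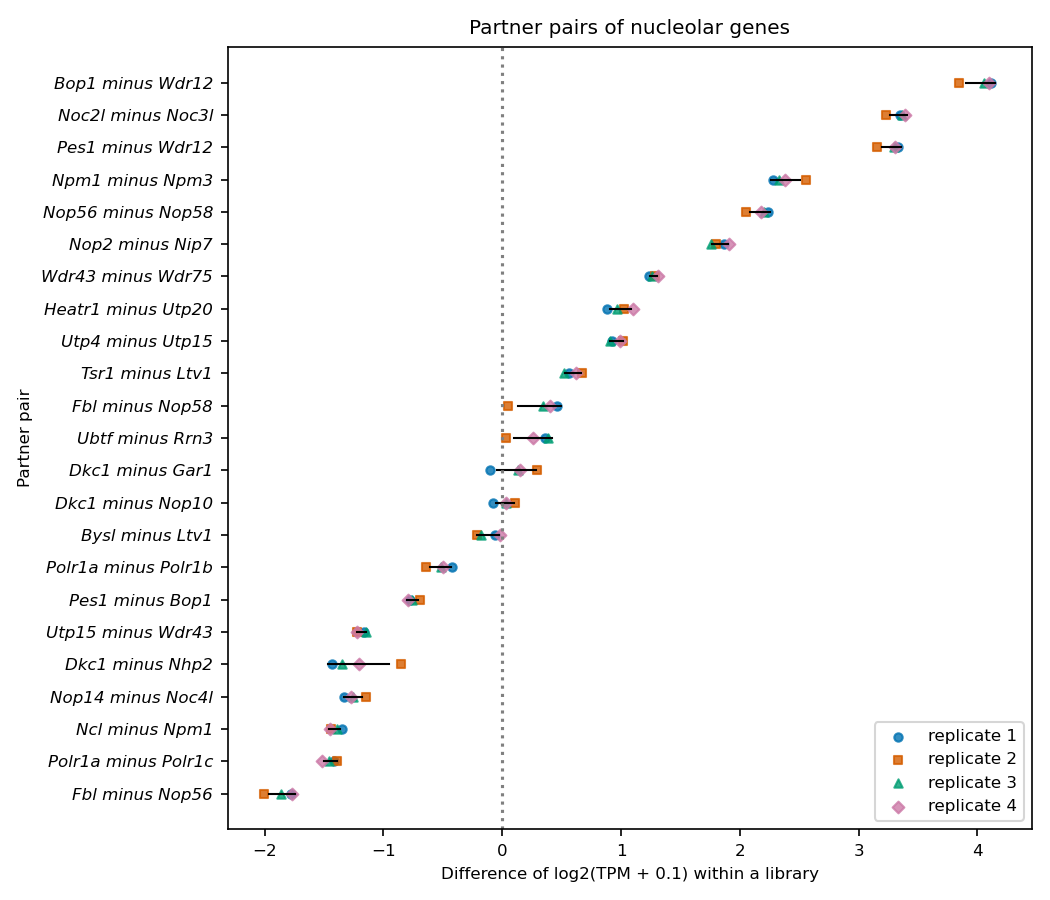
Partner pairs within libraries. Each point is the difference of log2(TPM + 0.1) of both genes in 1 library, the black line spans the mean ± SD over 4 libraries and the dotted line marks equal levels. The libraries of a pair cluster together, from Bop1 over Wdr12 at the top to Fbl under Nop56 at the bottom, and only Dkc1 against Gar1 and against Nop10 have points on both sides of 0.

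No ribosome-building gene was called as more variable between libraries than genes of its abundance. The series has no second group, so the test compared each gene's spread over the 4 libraries with the trend of all genes (edgeR's quasi-likelihood fit, Benjamini-Hochberg adjustment over 13625 genes, threshold 0.05). It called 0 of 44 members, where 1 gene, Xist, or 0.00734% of all tested, was called. limma-trend and the dispersion outliers of DESeq2 also called 0 members, where they called 1 and 43 of all 13625 genes. At an unadjusted p under 0.05, 2 of 44 members passed, against 4.7% of all genes, a share near that background. They were Rrp9 and Nhp2, each with an adjusted p = 0.965 in the edgeR fit and each lowest in replicate 2. Without replicate 2 the fit called 18 of 14003 genes and 0 members. Without replicate 1 a single member, 1 of 44, had an unadjusted p under 0.05, against 664 of 13594 genes.

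The spread of most members lay under the trend. The median log2 ratio of a member's dispersion to the trend was -0.83, against -0.19 over all tested genes and -0.20 over the 10060 other genes within the members' range of counts. It was -1.43 without replicate 1 and -1.27 without replicate 2, where all tested genes had -0.42 and -0.45. Only 13 of 44 (29.5%) lay above the trend, against 45.2% of all tested genes. Highest were Rrp9 at 3.01, Nhp2 at 2.25 and Rrp12 at 2.00, and lowest were Wdr12 at -8.78, Polr1b at -6.40 and Heatr1 at -5.81. After normalization the highest and the lowest library differed by 0.16 on the log2 scale for the median member and by 0.30 for the median gene. The difference was under 0.5 for 43 of 44 members and 71.9% of all tested genes, and Rrp9 was the exception at 0.59. All tested genes include genes less abundant than any member, so these ranges are not matched in level. On the TPM scale the median CV was 4.74% for members and 6.97% for the 8403 protein-coding genes within their range of levels. Those genes had a median level of 45.3 TPM, against 142.5 TPM for members, so the 2 sets are not matched in level. Without replicate 2 the members' median CV was 3.07%.

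**Figure D3:**
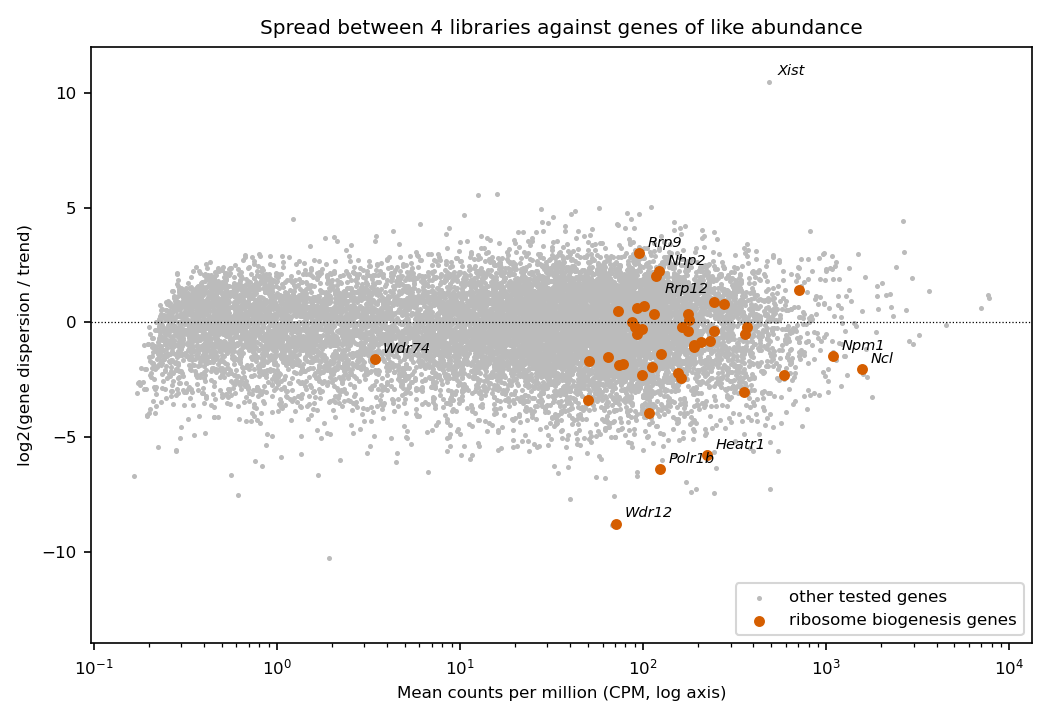
Spread between libraries against abundance. The x axis is the mean CPM (counts per 1000000 counts, log axis) and the y axis the log2 ratio of each gene's dispersion to the trend, for 13625 tested genes in grey and 44 members in colour. Rrp9, Nhp2 and Rrp12 are the highest members, Wdr12, Polr1b and Heatr1 the lowest, and Xist lies far above them.

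The members moved little between libraries, and replicate 2 most often held their lowest value. Of the 44 members, 20, 14, 7 and 3 were highest in replicates 1 to 4, where 24.3%, 34.3%, 23.2% and 18.2% of all genes peaked. With DESeq2 size factors these counts were 17, 16, 7 and 4, and with total-count scaling 17, 17, 7 and 3. The lead of replicate 1 over replicate 2 thus depends on the normalization. In replicate 2, 22 members had their lowest value, or 50%, against 35.3% of all genes. The moves were small, since the median deviation of members from their own mean was 0.03, -0.03, 0.01 and -0.01 on the log2 scale in replicates 1 to 4. A deviation beyond 0.2 occurred for 1 member in replicate 1, Rrp9, and for 4 in replicate 2: Rrp9 at -0.37, Nhp2 at -0.27, Rrp12 at -0.25 and Wdr74 at -0.20. It occurred for 0 members in replicates 3 and 4, and for 17.5% to 32.2% of all genes per library, which include genes less abundant than any member. Replicates 1 and 2 lay on opposite sides of the gene mean in 36 of 44 members (81.8%) and in 76.0% of all genes. The members thus lay near the background, and no other pair of libraries was compared in this way.

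**Figure D4:**
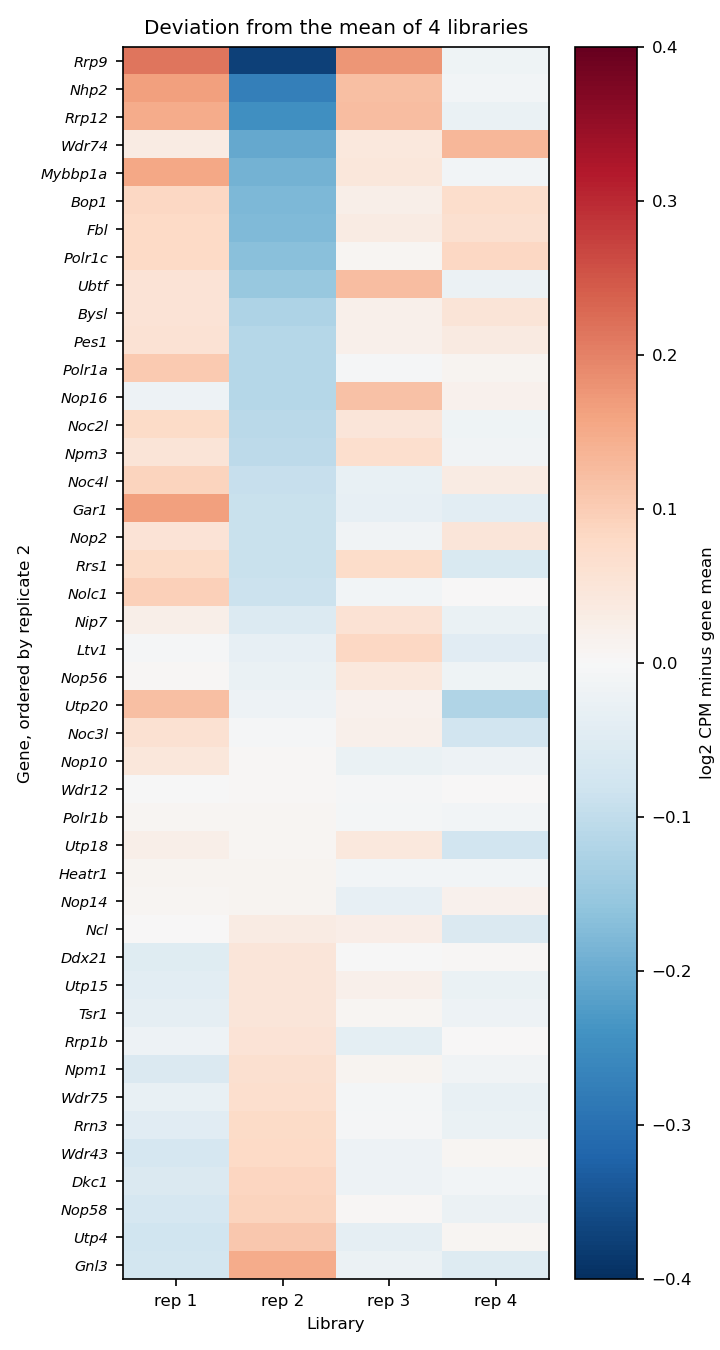
Deviation of each member from its own mean over 4 libraries, on the log2 CPM scale (colour bar), with genes ordered by replicate 2. Red is above and blue below the mean, and the column of replicate 2 runs from Rrp9 at -0.37 to Gnl3 at 0.15.

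Within replicate 2 the members lay on both sides of their means. Rrp9, Nhp2, Rrp12, Wdr74, Mybbp1a, Bop1 and Fbl lay lowest, and Gnl3 at 0.15, Utp4 at 0.11, Nop58 and Dkc1 at 0.09 lay highest. This order moved with the GC content of the transcripts, which had a median of 50.4% in members. In replicate 2, 21 of the 23 members with a GC content over 50% were below their mean and 17 of the 21 others were above it. Across the 44 genes the correlation of GC content with deviation was r = 0.71, -0.82, 0.39 and 0.47 for replicates 1 to 4, beside 0.20, -0.33, 0.12 and 0.09 across 13603 genes. These are descriptions across genes of the same 4 libraries, and the 4 deviations of a gene sum to 0, so the coefficients are not independent. With each library's linear trend over GC content removed, 16, 5, 13 and 10 members were highest in replicates 1 to 4 and 29 were lowest in replicate 2. The median range over libraries went from 0.16 to 0.13. Neither these counts nor those on either side of 50% GC content were made over all genes, so they have no background here. The cytosolic ribosomal protein genes also had their smallest share of counts in replicate 2, at 4.53%, against 4.92% to 5.15% in the others, and the summed regulatory T cell markers their highest level there, at 4526 TPM against 3821 to 4160 TPM. That sum was carried by Il2ra at 2491 TPM and Ctla4 at 676.1 TPM, while Foxp3, at 408.4 TPM, and Cd4, at 634 TPM, were lowest in replicate 2. Their part in the members' deviations was not tested.

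**Figure D5:**
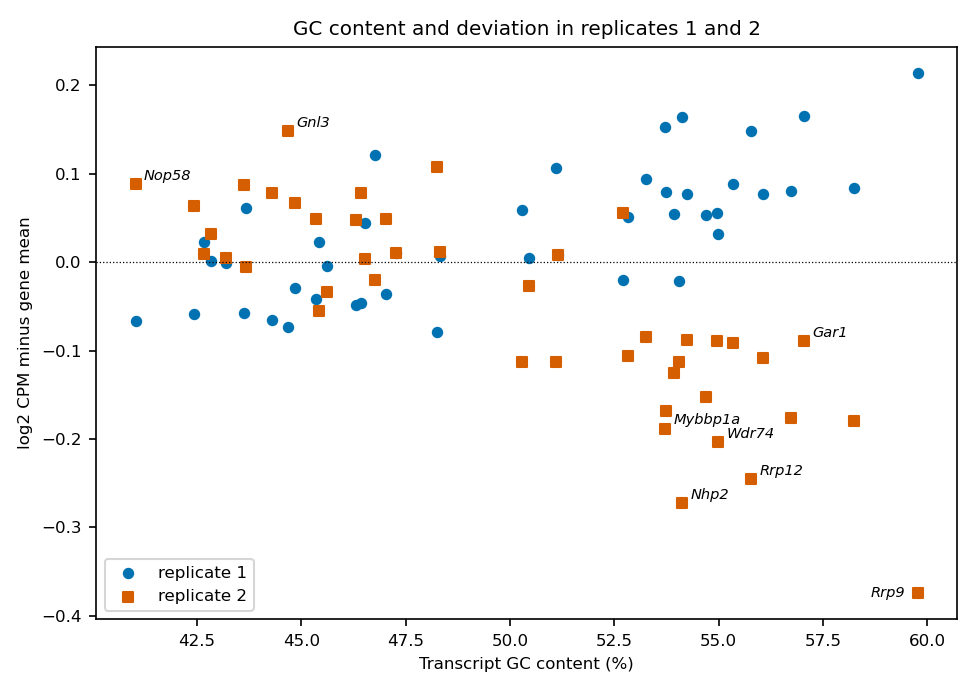
GC content of the transcript (x axis, percent) and deviation from the gene mean on the log2 CPM scale (y axis) for the 44 members in replicates 1 and 2. The replicate 2 points fall from left to right, from Nop58 and Gnl3 above 0 to Rrp9 at -0.37, while those of replicate 1 rise.

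Other genes of the pathway were as widely detected and somewhat less abundant. From 8 further lists with 152 genes, 151 matched, 149 reached 1 TPM in every library and 52 (34.4%) reached 100 TPM, with a median of 79.2 TPM, against 142.5 TPM for the 44 members. Of the 149 tested, edgeR called 0 as variable (0.00734% of all genes called), and 4 had an unadjusted p under 0.05 (4.7% of all genes). Their summed level was 15470 ± 100.2 TPM.

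Other RNA polymerase I machinery, 16 genes at a median of 37.5 TPM, ran from Taf1a, a subunit of the promoter selectivity factor, at 17.2 ± 1.27 TPM to Polr2f, a subunit common to RNA polymerases I, II and III, at 317.8 ± 19.1 TPM. The 36 other processome genes, at a median of 82.0 TPM, ran from Utp25 (annotated as Diexf) at 31.7 ± 1.20 TPM to Imp3, a U3 snoRNP protein, at 227.7 ± 5.09 TPM. The 42 other large subunit genes, at a median of 93.6 TPM, ran from the helicase Ddx55 at 23.4 ± 0.865 TPM to Rsl1d1 at 350.6 ± 23.2 TPM. Each of these lists had a lower median than the member group of the same role, which stood at 138.5, 113.2 and 154.5 TPM.

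For subunit export and late maturation, 15 genes had a median of 90.2 TPM, from Nmd3, the export adaptor of the large subunit, at 22.2 ± 2.33 TPM to Ran, the GTPase of nuclear transport, at 631.7 ± 11.6 TPM. The 10 snoRNP assembly genes had a median of 46.1 TPM, with Shq1, a chaperone of dyskerin, lowest at 12.8 ± 0.925 TPM and the ATPase Ruvbl2 highest at 198 ± 22.2 TPM. The 17 genes of the RNA exosome and precursor trimming had a median of 70.7 TPM, with the exonuclease Xrn2 highest at 191.4 ± 18.9 TPM. Exosc6, an exosome ring subunit, is listed at 0 in all 4 libraries. Fragments that overlap several genes or map to several places were not counted. Whether this bears on Exosc6 was not tested, so its 0 is not read as absence of the message. The other core subunits from Exosc1 to Exosc9 stood between 30.4 and 136.4 TPM.

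The 8 genes of ribosomal DNA silencing had a median of 80.2 TPM, from Kdm2a, a histone demethylase, at 40.0 ± 1.92 TPM to the DNA methyltransferase Dnmt1 at 304.7 ± 11.3 TPM. The 8 genes of the 5S particle and its link to p53 had a median of 160.5 TPM. There Myc, the transcription factor that drives many ribosome genes, was highest with 474.5, 490.5, 456.2 and 487.3 TPM, and Cdkn2a, which encodes an inhibitor of Mdm2, was lowest with 1, 3, 0 and 0 counts. Cytosolic ribosomal protein genes, the products that these factors assemble, had a median of 923.8 TPM over 83 genes, and mitochondrial ribosomal protein genes 66.6 TPM over 78.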

How the data were processed

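RNA-seq was measured in 4 mouse regulatory T cell libraries of 1 group. The authors deposited raw counts of fragments for each gene. Per the file headers, featureCounts 1.4.6-p4 assigned them to GENCODE M13 genes on the mm10 build. Only fragments with both mates aligned were kept, on the reverse strand (setting 2), and the headers show no option for fragments that map to several places or overlap several genes, so members with near-identical copies or overlapping genes may be undercounted. The sources used here name no aligner version. Total RNA-seq is the assay title in the labels, although the linked library protocol is for poly(A)+ RNA.

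From the counts and merged exon lengths, TPM was computed here. Gene types, GC content and transcript lengths came from GENCODE M21, and 50376 of 50600 gene identifiers matched a symbol. Of 152 listed pathway genes, Riok2 did not match. Within libraries, pairs were compared by their difference in log2(TPM + 0.1), tested by exact two-sided sign flips. Variation between libraries was fitted across all genes with edgeR 4.0.16 in R 4.3.3 (filterByExpr, TMM, intercept only, robust prior with 6.54 degrees of freedom). Counts carry no molecular identifiers in the sources used here.

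The 44 genes and all lists were chosen with earlier results of these data known. Every member has its mean and SD. Values per library are given for the highest and the lowest member of each role, for the members of the 3 widest and the 3 narrowest pairs, and for the 3 largest and 3 smallest CVs. The highest and lowest gene of each further list is named. Foxp3, Cd8b1 and Xist, the members named by their deviation in a library or their dispersion, and those named for their exon length were chosen after their values were seen.

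Alternatives for the variation test were upper quartile factors, DESeq2 1.42.0 (its size factors, and its dispersion outliers as calls), limma 3.58.1 with a trended prior, a prior fitted without the robust option, no filter, and at least 50 counts per library. For levels and pairs they were CPM in place of TPM, a pseudocount of 1, total-count scaling and counts on protein-coding genes only, and each replicate was left out in turn. The coding transcript length and the removal of a linear GC trend were chosen after seeing the data. Python 3.11.15 was used with pandas 2.3.3, numpy 2.4.6, matplotlib 3.10.9 and scipy 1.17.1.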

Additional observations from a re-analysis of the deposited data

Results flagged for a closer look

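Of 75 sets of 4 values tested for a library far from the others (44 genes, 7 role sums, 23 pairs and the share of counts), 4 met the criterion, where chance would mark about 1 in 20. Gar1 was 159.7 TPM in replicate 1 and 136.9 to 139.6 TPM in the others. Wdr75 was 83.4 TPM in replicate 2 and 75.2 to 76.1 TPM in the others. Gnl3 was 236.8 TPM in replicate 2 and 196.2 to 200.9 TPM in the others. The summed level of the nucleolar scaffold and chaperone genes was 2630 TPM in replicate 2 and 2482 to 2493 TPM in the others.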

How the results depend on the processing

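The count of members called as variable was 0 under each of the alternatives run. The number of all genes called was 1 in the analysis as reported, 98 without a filter on low counts, 43 as DESeq2 dispersion outliers, and 1 to 18 when 1 replicate was left out, with 18 without replicate 2 and 2 without replicate 1. Members at an unadjusted p under 0.05 numbered 3 of 44 without a filter on low counts, against 1465 of 23106 genes. The smallest adjusted p of a member in that edgeR fit was 0.0823, against 0.965 in the fit as reported. With a minimum of 50 counts it was 1 member, against 529 of 11535 genes. With 1 replicate left out it was 1 to 2 members, against 628 to 784 of all genes. The members' median level was 124.9 as CPM without length and 122.2 TPM with the coding transcript length. Their share of counts on protein-coding genes was 1.00% on average, against 0.991% of all counts. With the GC trend removed, 5, 13 and 10 members were highest in replicates 2, 3 and 4, against 14, 7 and 3, and all genes were not counted this way. Of 161 pair values under alternatives, 154 kept their direction. Without division by length, 6 pairs turned: Ncl against Npm1 to 0.53, Fbl against Nop58 to -1.04, Dkc1 against Nhp2 to 0.63, Polr1a against Polr1b to 0.51 and against Polr1c to 0.94, and Bysl against Ltv1 to 0.61, since the longer gene of a pair then gains. With 1 replicate left out, Dkc1 against Nop10 ranged from -0.0052 without replicate 2 to 0.056 without replicate 1. No paired analysis was possible because the series holds 1 group. Depth limits the values of genes with a few counts such as Cdkn2a. The value of Wdr74, the member with the fewest counts, is uncertain because of its shared exon bases.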

Other observations

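The 7 members that host small nucleolar RNA (snoRNA) genes are Ncl, Nop56, Nop58, Dkc1, Wdr43, Gnl3 and Tsr1, and 21 annotated snoRNA genes lie inside them. The snoRNA counts were very low beside those of the hosts, with a maximum of 75 counts for Snord69 in Gnl3, which had 75, 32, 62 and 53 counts in replicates 1 to 4. Snord19, also in Gnl3, had 62, 43, 32 and 26 counts, and Snord53 in Wdr43 had 43, 41, 39 and 26. Of the 21, 9 had 0 counts in all libraries, among them the 7 that overlap an exon of the host, where a fragment on both genes is not counted. The linked library protocol is for poly(A)+ RNA. Whether it recovers snoRNAs was not tested, so these counts are not read as snoRNA levels in the cells.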
